A study of Rattus norvegicus with 25 samples.

Results

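Serpins are a superfamily of proteins that share one fold, and most of them trap a protease by offering it a reactive loop as bait. Here the superfamily was taken as every probe set whose single gene symbol starts with Serpin, without regard to its signal, which gave 38 probe sets of 33 genes among 31042 probe sets tested and 14217 genes measured. Hepatocytes make many of the serpins of blood plasma, such as α1-antitrypsin and antithrombin, and these glycoproteins enter the endoplasmic reticulum (ER), fold there and leave it for the Golgi in vesicles made by the COPII coat. Sar1 is the small GTPase that starts the assembly of this coat. The clade letter in a gene's name (A to I) groups serpins by descent. The members of clade B lack a classical signal peptide and act mainly inside cells, whereas those of the other clades measured here mostly enter the secretory pathway. Serpinh1, also known as HSP47, stays in the ER as a chaperone of collagen.

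RNA was measured on 25 arrays in 7 stable lines of McArdle-RH7777, a rat hepatoma cell. The Sar1B:H79G lines (2 lines, 8 arrays) express FLAG-tagged human Sar1B with the H79G change, a form described as locked in its active state because it cannot hydrolyze GTP. The Sar1B lines (2 lines, 8 arrays) and the Sar1A line (1 line, 4 arrays) express the FLAG-tagged human wild-type proteins, and the control lines (2 lines, 5 arrays) carry no Sar1 construct. Every line carries the tetracycline repressor, was kept under Blasticidin and Zeocin, received 1 µg/ml tetracycline for 24 h and the transfected lines were grown from single picked clones, so that a group of 1 or 2 lines also carries what is particular to its clones, and the lines still express the rat's own Sar1 genes. Arrays of a line are technical replicates and were averaged, and n below counts lines. Signals are on a log2 scale, where a difference of 1 is a doubling, and comparisons were made with limma across all probe sets, called where the p adjusted by Benjamini-Hochberg was under 0.05. For the lone Sar1A line the spread of the other groups was assumed.

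Array medians lay between 8.1 and 8.2, and arrays correlated with a median of 0.995 within a line and 0.991 between lines of a group. Of the hepatocyte markers, 8 of 9 were measured and all 8 lay above the median probe set, 7 of them in the top 10%, whereas 3 of 7 fibroblast or stellate cell markers (Acta2, Pdgfrb and Col1a1, with 0 in the top 10%), 0 of 4 endothelial and 0 of 5 macrophage markers lay above it. The log2 of the summed signals of the hepatocyte markers was 15.84 to 15.92 in Sar1B:H79G, 16.13 to 16.28 in Sar1B, 16.21 in Sar1A and 15.86 to 16.2 in control lines. The brightest markers weigh most in this sum, and Apob and Hnf4a were called lower in Sar1B:H79G against control. Kdr and Csf1r, dim markers of the endothelial and macrophage lists, were called lower there too, and the part of these shifts in the results was not tested. The control arrays form one array series and the remaining arrays another, so that in any comparison with control the array series cannot be told apart from the Sar1 constructs. The 5′ minus 3′ difference in β-actin signal, a sign of RNA or labelling quality, averaged -0.59 in the Sar1 lines and -0.88 in the control lines, and its part in the results was not tested. Sar1B:H79G, Sar1B and Sar1A lines share a series and can be compared within it. The authors report more recombinant Sar1 in Sar1A lines than in Sar1B and Sar1B:H79G lines. They also report more of the rat's own Sar1a RNA in Sar1B:H79G than in control cells. The amount of Sar1 therefore cannot be told apart from its form in these comparisons.

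Of the 38 Serpin probe sets, 14 (13 genes) had a mean above that of the median probe set (8.13) and 24 (21 genes) lay at or below it. The brightest were Serpina1, at the 98.7th percentile of all probe sets, and the clade B member Serpinb6a, at the 97.4th. The files hold no detection calls, so that the 24 dim probe sets cannot be separated from background. At least 1 of the 6 comparisons among the 4 groups called 15 probe sets of 14 genes, and 23 probe sets were called in none.

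Sar1B:H79G against control called 13 Serpin probe sets (34.2% of 38), against 22.3% of all probe sets. Of these, 3 were higher and 10 lower in Sar1B:H79G lines, whereas over all probe sets 13.2% were called higher and 9.17% lower. The 3 that rose were Serpinf1, Serpinb9b and Serpinb6a. The 10 that fell were Serpina1, Serpina3n, Serpina4, Serpina10, Serpinb2, one of the probe sets of Serpinb9, Serpind1, Serpine2, Serpine3 and Serpinf2. The estimate was below 0 for 34 of 38 members, with a median of -0.14, against 13966 of 31042 probe sets and a median of 0.03 overall. Against control it was also below 0 for 27 members in Sar1B (median -0.11) and 32 in Sar1A (median -0.20). Over all probe sets, 13435 and 14308 lay below 0 there. Within one array series, Sar1B:H79G lay below Sar1B for 24 members (median -0.04) and below Sar1A for 16 (median 0.05). Over all probe sets, 14621 and 13946 did. In Sar1B:H79G against control, calls were more frequent at high signals, with 6 of 9 members called among the 7761 brightest probe sets (38.1% of which were called) and 3 of 12 among the 7761 dimmest (11.8%). Below 0 lay 7 of 9 members among the brightest, where 40.4% of all probe sets did, and 12 of 12 among the dimmest, where 49.8% did. The count rested on few lines, at 4 when either control line was left out, 7 when Sar1B:H79G line 1 was and 6 when Sar1B:H79G line 2 was.

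**Figure D1:**
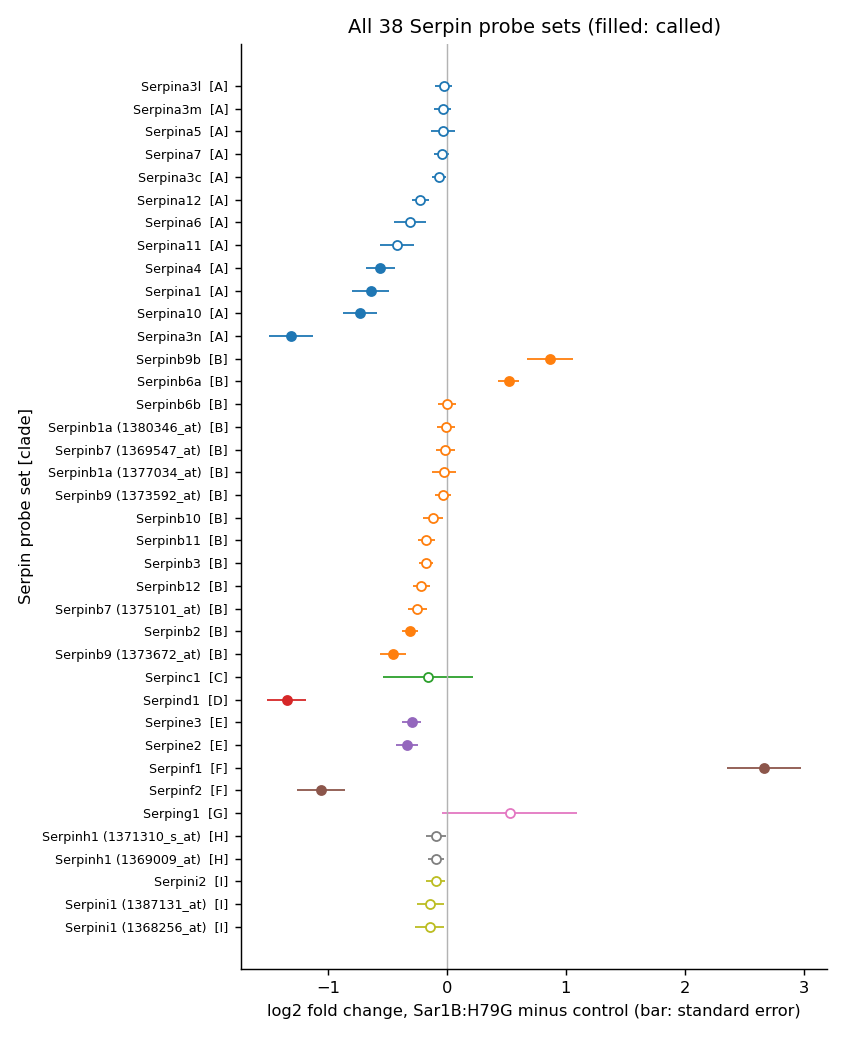
Log2 fold change of Sar1B:H79G lines minus control lines for all 38 Serpin probe sets, ordered by clade (letter in brackets), with the standard error of the fit as bars. Filled points are the 13 called probe sets, and only 4 points lie to the right of 0, with Serpinf1 at 2.67.

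Sar1B against control called 6 members (15.8%), against 8.29% of all probe sets, with 2 higher and 4 lower in Sar1B lines where the shares over all probe sets were 6.28% and 2.01%. The count ranged from 0 without control line 2 to 4 when single lines were left out, and was 2 without control line 1, 1 without Sar1B line 1 and 3 without Sar1B line 2. Sar1A against control called 1 member (2.63%), against 1.18% of all probe sets. An unadjusted p under 0.05 was found for 13 members, beside 7069 of 31042 probe sets. That single call was lost whenever any line was left out. Sar1B:H79G against Sar1B called 3 members (7.89%), all lower in Sar1B:H79G lines, against 8.63% of all probe sets (3.34% higher and 5.29% lower), which is close to the background. It called 1 without either control line or Sar1B:H79G line 2. Sar1B:H79G against Sar1A called 0 members, where 2.96% of all probe sets were called (1.33% higher and 1.63% lower). It gave 7 members an unadjusted p under 0.05, beside 4657 of 31042 probe sets. Sar1B against Sar1A called 0, where 0.00322% of all probe sets were called. It gave 8 members an unadjusted p under 0.05, beside 2036 of 31042 probe sets. These comparisons share lines, so that their values stand side by side below and do not support one another.

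**Figure D2:**
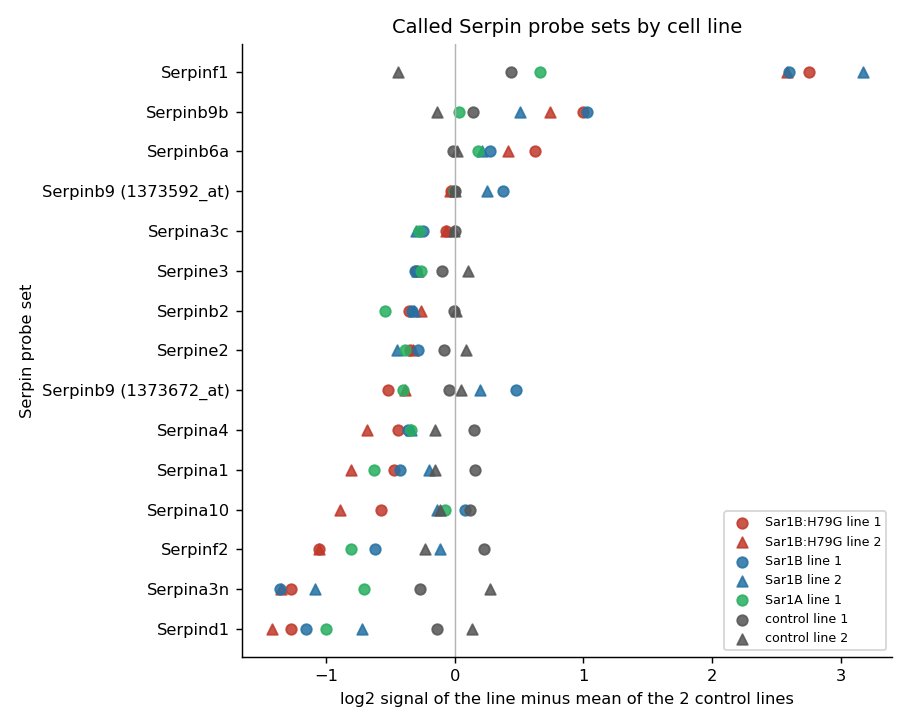
Log2 signal of each of the 7 lines minus the mean of the 2 control lines (x axis) for the 15 Serpin probe sets called in at least 1 comparison (y axis), with colour for the group and a circle or triangle for the line. Serpinf1 stands furthest to the right in all 4 Sar1B:H79G and Sar1B lines, while the Sar1A line lies near the control lines.

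Serpinf1 encodes pigment epithelium-derived factor (PEDF), a secreted serpin that inhibits no protease and is known for opposing vessel growth. Its log2 signal was 11.62 and 11.44 in the Sar1B:H79G lines, 11.46 and 12.03 in the Sar1B lines, 9.53 in the Sar1A line, and 9.30 and 8.42 in the control lines. The Sar1B:H79G and Sar1B lines lay far above the others with no overlap, and the Sar1A line lay just above the higher control line. The groups averaged 11.53 ± 0.13 in Sar1B:H79G lines, 11.75 ± 0.40 in Sar1B lines and 8.86 ± 0.62 in control lines (SD, n = 2 lines each). Serpinf1 was 6.35-fold higher in Sar1B:H79G than in control lines (log2 fold change 2.67, SE 0.31, adjusted p = 0.0038) and 7.39-fold higher in Sar1B than in control lines (2.89, SE 0.31, adjusted p = 0.012). No other of the 31042 probe sets had a larger log2 increase in Sar1B against control. In the Sar1A line the difference was 0.67 (adjusted p = 0.34, 95% confidence interval -0.25 to 1.58), which did not pass the test. Within one array series, Serpinf1 was higher in Sar1B:H79G than in Sar1A cells by 2.00 on the log2 scale (adjusted p = 0.054) and in Sar1B than in Sar1A cells by 2.22 (adjusted p = 0.28), and neither difference was called. Sar1B:H79G differed from Sar1B lines by -0.22 (adjusted p = 0.80), with an interval of -0.97 to 0.53. The call in Sar1B:H79G against control was kept in all 15 alternative settings (log2 fold change 2.23 to 3.11, adjusted p at most 0.028), and the call in Sar1B ended when control line 2 was left out (adjusted p = 0.086).

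**Figure D3:**
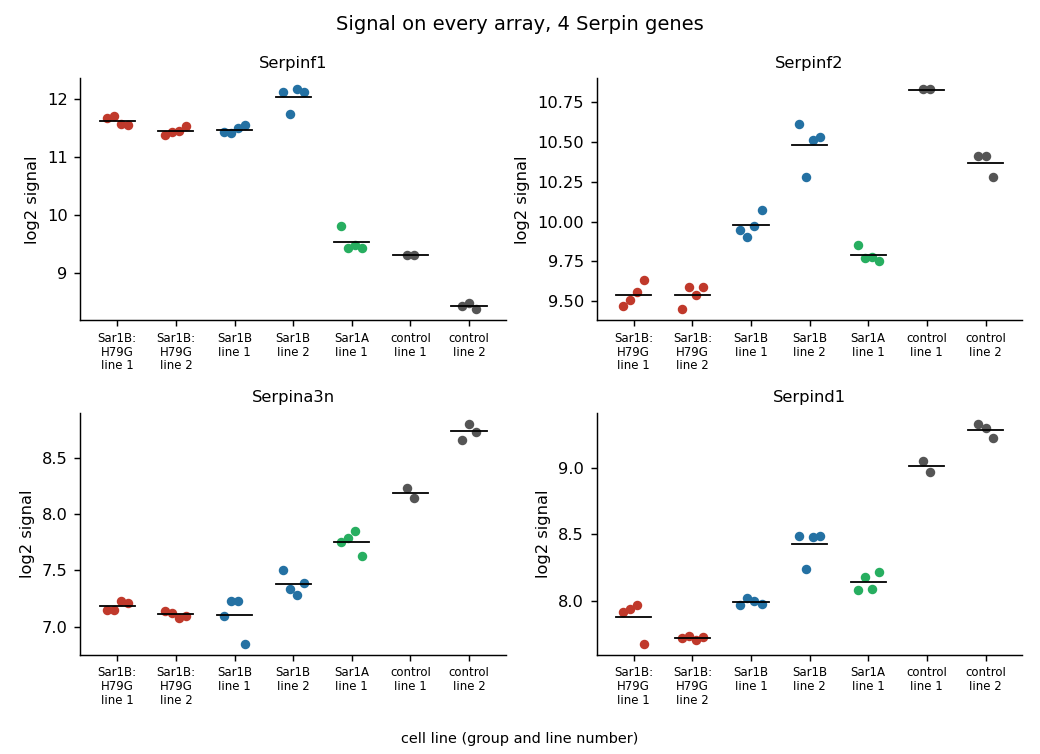
Log2 signal of Serpinf1, Serpinf2, Serpina3n and Serpind1 on every array (points) in the 7 lines, with the line mean as a bar. Arrays of a line cluster tightly, and for Serpinf1 the 16 arrays of the Sar1B:H79G and Sar1B lines all lie above 11.3 while the other 9 lie below 9.9.

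Serpinf2 encodes α2-antiplasmin, the main plasma inhibitor of plasmin, and is the direct neighbour of Serpinf1 on the same strand of rat chromosome 10. Its log2 signal was 9.54 and 9.54 in the Sar1B:H79G lines, 9.98 and 10.48 in the Sar1B lines, 9.79 in the Sar1A line, and 10.83 and 10.37 in the control lines. The Sar1B:H79G lines were the lowest of all, and the Sar1B lines overlapped the control lines. Serpinf2 was 2.08-fold lower in Sar1B:H79G than in control lines (log2 fold change -1.06, SE 0.20, adjusted p = 0.017), the opposite direction to its neighbour. It differed by -0.37 in Sar1B (adjusted p = 0.28) and by -0.81 in Sar1A (adjusted p = 0.14) against control, and by -0.69 between Sar1B:H79G and Sar1B lines (adjusted p = 0.10). The call ended when any one of these 4 lines was left out, at an adjusted p of 0.053 and 0.051 for the Sar1B:H79G lines and of 0.073 and 0.050 for the control lines (line 1 first in each group).

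The 250 bases before the annotated starts of these neighbours are given because the genes lie side by side and moved in opposite directions (RefSeq, GRCr8, 5′ to 3′ on the gene's strand). Capitals mark a match to a searched motif, and Serpinf2 holds none. Serpinf1 lies at chr10:60760899-60761148 (minus strand) and Serpinf2 at chr10:60778783-60779032 (minus strand).
Serpinf1: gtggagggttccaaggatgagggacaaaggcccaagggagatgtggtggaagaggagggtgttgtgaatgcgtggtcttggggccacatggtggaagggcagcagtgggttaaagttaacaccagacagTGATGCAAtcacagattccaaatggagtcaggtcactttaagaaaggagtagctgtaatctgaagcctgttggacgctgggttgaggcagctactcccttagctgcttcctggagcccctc
Serpinf2: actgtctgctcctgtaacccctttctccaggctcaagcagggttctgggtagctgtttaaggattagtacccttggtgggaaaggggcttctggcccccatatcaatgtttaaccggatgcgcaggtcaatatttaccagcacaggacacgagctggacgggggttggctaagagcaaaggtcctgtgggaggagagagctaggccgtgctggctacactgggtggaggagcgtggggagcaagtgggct
The Serpinf1 match, TGATGCAA, is a composite element read by C/EBP and ATF factors such as ATF4, and lies 121 to 114 bases before the start. It occurred on either strand in 2 of 28 Serpin windows and in 0.693% of 33469 windows of the same length. A match says only that these letters stand in the window.

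Serpind1 encodes heparin cofactor II, a plasma inhibitor of thrombin. Its log2 signal was 7.88 and 7.72 in the Sar1B:H79G lines, 7.99 and 8.42 in the Sar1B lines, 8.14 in the Sar1A line, and 9.01 and 9.28 in the control lines. All 5 Sar1 lines lay below both control lines, and the Sar1B:H79G lines lay below all others. Serpind1 fell 2.54-fold in Sar1B:H79G against control (log2 fold change -1.35, SE 0.16, adjusted p = 0.0044) and 1.92-fold in Sar1B against control (-0.94, SE 0.16, adjusted p = 0.028). The Sar1A line was 2.00-fold lower than control without being called (adjusted p = 0.071), and Sar1B:H79G differed from Sar1B lines by -0.41 (adjusted p = 0.22, interval -0.80 to -0.01). The Sar1B:H79G call was kept in all 15 settings (adjusted p at most 0.049), whereas the Sar1B call was lost without control line 1 (0.066), control line 2 (0.18) or Sar1B line 1 (0.066). Because the controls form their own array series, the part of the series in a shift shared by all 5 Sar1 lines cannot be told apart from that of the constructs. In lysates of whole cultures, fewer cells that express a gene and less RNA per cell also cannot be told apart.

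Serpina3n, a rodent relative of α1-antichymotrypsin and an acute-phase gene of the liver, was also lower in the Sar1 lines. Its log2 signal was 7.19 and 7.11 in the Sar1B:H79G lines, 7.10 and 7.38 in the Sar1B lines, 7.75 in the Sar1A line, and 8.19 and 8.73 in the control lines. All Sar1 lines lay below the control lines, and the Sar1A line lay between the Sar1B and control lines. Serpina3n fell 2.48-fold in Sar1B:H79G against control (log2 fold change -1.31, SE 0.18, adjusted p = 0.0069) and 2.33-fold in Sar1B against control (-1.22, SE 0.18, adjusted p = 0.021), and the Sar1A difference of -0.71 was not called (adjusted p = 0.15). Sar1B:H79G and Sar1B lines differed by -0.09, with an interval of -0.54 to 0.36 (adjusted p = 0.87). The Sar1B:H79G call was kept in 14 of 14 settings, and the Sar1B call was lost without control line 2 (0.11), Sar1B line 1 (0.069) or Sar1B line 2 (0.059). Its mean lay at the 31.1st percentile of all probe sets, and cross-hybridization with the closely related Serpina3c, Serpina3l and Serpina3m was not tested.

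Clade A, the largest group of plasma serpins, had 12 probe sets of 12 genes, and 11 of these genes lie in a cluster on rat chromosome 6, with Serpina7 (thyroxine-binding globulin) on X. In Sar1B:H79G against control 4 fell and 0 rose, and all 12 estimates were below 0 (-1.31 to -0.03, median -0.27). Over all probe sets 13.2% were called higher and 9.17% lower there. In Sar1B against control 2 fell, 0 rose and all 12 were again below 0 (median -0.23). Over all probe sets 6.28% were called higher and 2.01% lower there. In Sar1A against control 0 were called and 11 were below 0 (median -0.27), where 1.18% of all probe sets were called. Between Sar1B:H79G and Sar1B, within one array series, 7 of 12 lay below 0 (median -0.03). Along the cluster, the 3 probe sets with the most negative estimates after Serpina3n were Serpina10, Serpina1 and Serpina4, which are described next although they fall outside the rule for named genes and were chosen after their values were seen.

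**Figure D4:**
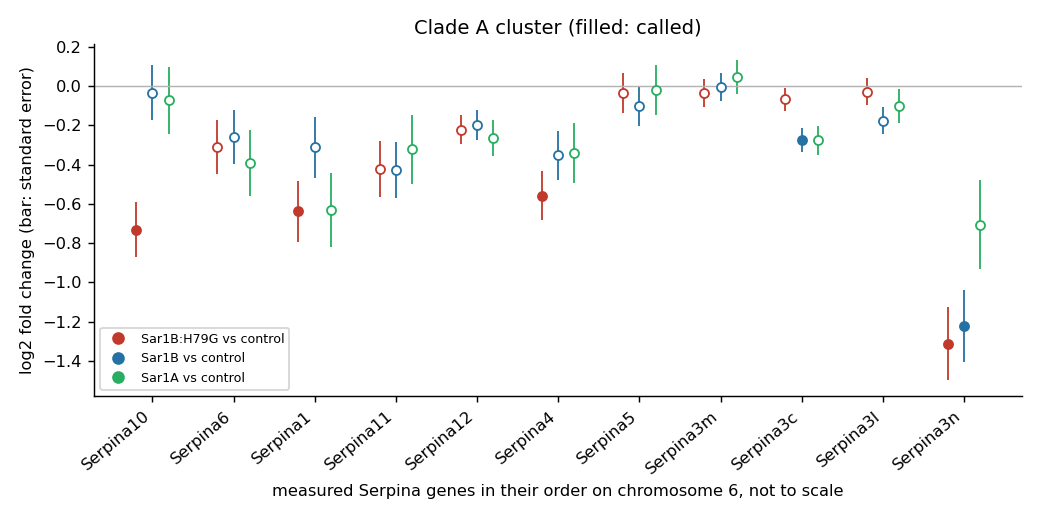
Log2 fold change against the control lines (y axis, bars are standard errors) of the 11 clade A genes on chromosome 6 in gene order (x axis, not to scale), in Sar1B:H79G, Sar1B and Sar1A. Filled points are called, the Serpina3n values of -1.31 and -1.22 stand at the right end, and Serpina10 stands at -0.73 in Sar1B:H79G (against -0.03 in Sar1B and -0.07 in Sar1A).

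Serpina10, the protein Z-dependent inhibitor of coagulation factor X in its active form, had log2 signals of 10.14 and 9.82 in the Sar1B:H79G lines, 10.78 and 10.57 in the Sar1B lines, 10.63 in the Sar1A line, and 10.82 and 10.59 in the control lines. The Sar1B:H79G lines lay below all others, and the Sar1B, Sar1A and control lines overlapped. It was lower in Sar1B:H79G than in control (log2 fold change -0.73, SE 0.14, adjusted p = 0.018) and than in Sar1B lines of the same array series (-0.70, SE 0.14, adjusted p = 0.035), and the difference from Sar1A was -0.66 (adjusted p = 0.13). Against control, the call ended at 0.081 and 0.071 when control line 1 or 2 was left out and at 0.051 when Sar1B:H79G line 2 was. Its call against Sar1B was lost without either control line (0.076 each), Sar1B line 1 (0.12), Sar1B line 2 (0.070) or Sar1B:H79G line 2 (0.094), with quantile normalization (0.051), with cyclic loess (0.056) and in a fit of only those groups (0.076).

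Serpina1 encodes α1-antitrypsin, the plasma inhibitor of neutrophil elastase. Its log2 signal was 12.72 and 12.39 in the Sar1B:H79G lines, 12.78 and 13.00 in the Sar1B lines, 12.57 in the Sar1A line, and 13.35 and 13.04 in the control lines. All Sar1 lines lay below both control lines, the Sar1B line at 13.00 by the smallest margin. It was lower in Sar1B:H79G than in control lines (log2 fold change -0.64, SE 0.16, adjusted p = 0.035), and the Sar1A difference of -0.63 was not called (adjusted p = 0.14). Serpina4, the rat relative of the kallikrein inhibitor kallistatin, had 9.30 and 9.06 in the Sar1B:H79G lines and 9.89 and 9.59 in the control lines, which did not overlap (-0.56, SE 0.12, adjusted p = 0.027). The Sar1B lines, at 9.38 and 9.40, and the Sar1A line, at 9.40, also lay below both control lines. Their differences of -0.35 and -0.34 against control were not called. Sar1B:H79G minus Sar1B was -0.21, with an interval of -0.51 to 0.10. The Serpina1 call was lost without control line 1 (0.13), control line 2 (0.081) or Sar1B:H79G line 2 (0.11), and the Serpina4 call without control line 1 or Sar1B:H79G line 2 (0.088 each). In Sar1B against control the other clade A call was the dim Serpina3c, at 7.27 and 7.22 in Sar1B lines and 7.53 and 7.52 in control lines (-0.28, SE 0.06, adjusted p = 0.048), which was lost whenever 1 line was left out (adjusted p up to 0.20) and in a fit of only the groups compared (0.066). Of the other clade A members, the carriers Serpina6 (corticosteroid-binding globulin) and Serpina7, the protein C inhibitor Serpina5, the adipokine Serpina12 (vaspin) and Serpina11, Serpina3l and Serpina3m were called in no comparison.

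The 14 clade B probe sets belong to 11 genes, in clusters on chromosomes 13 and 17. In Sar1B:H79G against control 2 rose, 2 fell and 10 were not called (-0.45 to 0.87, median -0.07). Over all probe sets 13.2% were called higher and 9.17% lower there. The members described here were chosen after their values were seen. Serpinb6a, a cytosolic protease inhibitor, had log2 signals of 12.42 and 12.20 in the Sar1B:H79G lines, a mean of 12.03 ± 0.05 (SD, n = 2 lines) in the Sar1B lines, 11.97 in the Sar1A line, and 11.77 and 11.81 in the control lines. The Sar1B:H79G lines were the highest and the control lines the lowest, with no overlap (0.52, SE 0.09, adjusted p = 0.012). Serpinb9b had 8.72 and 8.47 in the Sar1B:H79G lines, 8.76 and 8.24 in the Sar1B lines, 7.76 in the Sar1A line, and 7.87 and 7.59 in the control lines. Like Serpinf1 it was higher in all 4 Sar1B:H79G and Sar1B lines than in the Sar1A and control lines. It was called in Sar1B:H79G against control (0.87, SE 0.19, adjusted p = 0.027) but not in Sar1B against control (0.77, adjusted p = 0.063). The Serpinb6a call was lost without control line 1 (0.055) or 2 (0.075), with quantile normalization (0.092) and with cyclic loess (0.057), and the Serpinb9b call without control line 1 (0.065), control line 2 (0.16) or Sar1B:H79G line 1 (0.097).

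The window of Serpinb9b is given because it holds the other match to the Serpinf1 element, in the opposite orientation as TTGCATCA at 131 to 124 bases before the start (RefSeq, GRCr8, chr17:31594984-31595233, minus strand). Capitals also mark TTCTTTGAA, a match to TTCNNNGAA, the palindrome that STAT factors bind, which occurred in 4 of 28 Serpin windows and in 7.67% of all windows.
Serpinb9b: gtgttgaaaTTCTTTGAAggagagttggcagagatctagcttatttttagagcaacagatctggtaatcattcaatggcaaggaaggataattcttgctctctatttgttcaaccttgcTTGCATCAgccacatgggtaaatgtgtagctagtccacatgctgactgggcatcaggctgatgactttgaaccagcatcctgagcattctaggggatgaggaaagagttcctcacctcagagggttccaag
Serpinf1 and Serpinb9b are the genes of both Serpin windows with this element. Both genes were called higher in Sar1B:H79G against control, as was Serpinb6a, which has GC boxes (GGGCGG) and no match to the element. Windows covered 27 of the 33 genes, and a link between the element and the signals was not tested.

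Serpinb9, whose human relative inhibits granzyme B, had 2 probe sets whose differences had the same direction in every comparison and unequal size. The brighter had log2 signals of 8.34 and 8.33 in the Sar1B:H79G lines, 8.75 and 8.62 in the Sar1B lines, 8.37 in the Sar1A line, and 8.37 and 8.37 in the control lines. The dimmer had 6.71 and 6.84 in the Sar1B:H79G lines, 7.71 and 7.42 in the Sar1B lines, 6.83 in the Sar1A line, and 7.18 and 7.28 in the control lines. On both, the Sar1B lines were the highest. The Sar1B:H79G lines lay below the control lines on both, by 0.03 on the brighter, where arrays overlapped and the test was not passed (adjusted p = 0.75), and by 0.45 on the dimmer. Both were lower in Sar1B:H79G than in Sar1B lines (-0.35, SE 0.07, adjusted p = 0.033, and -0.79, SE 0.11, adjusted p = 0.011). Against control, the dimmer was called lower in Sar1B:H79G (-0.45, adjusted p = 0.034) and the brighter higher in Sar1B (0.31, adjusted p = 0.047). Only the call of the dimmer against Sar1B was kept in 14 of 14 settings. The brighter lost both of its calls whenever 1 line was left out, with adjusted p up to 0.13 against Sar1B and up to 0.20 in Sar1B against control. Its call against Sar1B was also lost with quantile normalization (0.060) and in a fit of only those groups (0.075), and its call in Sar1B against control was kept in 3 of 15 settings, being lost as well with quantile normalization (0.090), a shift of arrays to the same median (0.068), only probe sets above the median (0.062), only the groups compared (0.062) and cyclic loess (0.066). The dimmer lost its call against control without any single control or Sar1B:H79G line (up to 0.17).

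Serpinb2, plasminogen activator inhibitor of the PAI-2 type, was the only member called in Sar1A against control. Its log2 signal was 5.76 and 5.85 in the Sar1B:H79G lines, 5.78 and 5.81 in the Sar1B lines, 5.58 in the Sar1A line, and 6.11 and 6.13 in the control lines. The control lines were highest and their means did not overlap the others, at signals among the dimmest of the arrays. Single arrays did overlap, with the lowest control array at 5.97 and the highest at 6.22 in Sar1B:H79G and 6.04 in Sar1B. The SD of arrays within a line was 0.21. The differences against control were -0.31 in Sar1B:H79G (adjusted p = 0.022), -0.32 in Sar1B (0.038) and -0.54 in Sar1A (0.045). They were lost without control line 1 (0.063, 0.086 and 0.082 in these groups) and without control line 2 (0.10, 0.18 and 0.20). The Sar1B:H79G call was also lost without Sar1B:H79G line 1 (0.094), the Sar1B call without either Sar1B line (up to 0.14) and the Sar1A call without any other line (up to 0.070). The calls in Sar1B:H79G and Sar1B were lost when the line entered as a random effect (0.089 and 0.097), and the Sar1A call with cyclic loess (0.051). The other clade B genes, among them Serpinb1a (an elastase inhibitor of white blood cells), Serpinb3, Serpinb7, Serpinb10, Serpinb11, Serpinb12 and Serpinb6b, were called in no comparison.

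Clade E is known for inhibitors of plasminogen activators and thrombin, and both members measured were dim. Serpine2 (protease nexin-1) had 7.0 and 7.02 in the Sar1B:H79G lines and 7.26 and 7.43 in the control lines, and Serpine3 had 7.31 and 7.32 in the Sar1B:H79G lines and 7.51 and 7.71 in the control lines. Both fell in Sar1B:H79G against control (-0.34, adjusted p = 0.045, and -0.30, adjusted p = 0.047) without overlap of lines. All Sar1 lines lay below both control lines for both genes. Against control, Serpine2 differed by -0.37 in Sar1B and -0.38 in Sar1A, and Serpine3 by -0.30 and -0.26. Sar1B:H79G minus Sar1B was 0.03 for Serpine2 and 0.01 for Serpine3. In a shift shared by all Sar1 lines, the array series cannot be told apart from the constructs. The Serpine2 call was lost without control line 1 (0.058) or 2 (0.20) or Sar1B:H79G line 1 (0.14) or 2 (0.11), and the Serpine3 call without control line 2 (0.16), either Sar1B line (0.075 each) or Sar1B:H79G line 1 (0.15) or 2 (0.12), and in a fit of only the groups compared (0.075). Neither was called in another comparison.

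The widest gaps between lines of one group, 1.98 for Serping1 and 1.08 for Serpinc1 in the Sar1B lines, lay in genes that no comparison called. These genes were chosen after their values were seen. Called genes had wide gaps too. Serpinf1 differed by 0.88 between the control lines, a gap exceeded by 0.087% of all probe sets, and by 0.57 between the Sar1B lines. Serpina3n differed by 0.55 between the control lines. Serping1, the C1 inhibitor that controls complement and the contact system, had 7.82 and 7.64 in the Sar1B:H79G lines, 9.45 and 7.47 in the Sar1B lines, 7.38 in the Sar1A line, and 7.20 and 7.20 in the control lines. Sar1B line 1 stood alone: its arrays spanned 9.30 to 9.65 and those of Sar1B line 2 7.08 to 7.69. The gap of 1.98 between the Sar1B lines was exceeded by 0.0161% of all probe sets. The Sar1B difference against control, 1.26, was not called (adjusted p = 0.20, interval -0.12 to 2.64).

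Serpinc1 encodes antithrombin, the main plasma inhibitor of thrombin. It had 8.92 and 9.45 in the Sar1B:H79G lines, 10.73 and 9.66 in the Sar1B lines, 8.37 in the Sar1A line, and 9.60 and 9.08 in the control lines. Sar1B line 1 was again the highest and the Sar1A line the lowest, and each pair of lines lay at least 0.52 apart. Serpinc1 was lower in Sar1B:H79G than in Sar1B lines by 1.01 on the log2 scale without passing the test (adjusted p = 0.19, interval -1.93 to -0.10), and the Sar1B minus Sar1A difference of 1.83 was not called either (adjusted p = 0.48). Over all 38 members, 1 differed by more than 0.5 between the Sar1B:H79G lines, 5 between the Sar1B lines and 3 between the control lines. Over all probe sets 2.5%, 2.3% and 0.928% did so in these groups. Serpini1 (neuroserpin, an inhibitor of tissue plasminogen activator), chosen after its values were seen, was also highest in Sar1B line 1, at 8.38 on the brighter of its probe sets. Other members went the other way, with Sar1B line 1 minus line 2 at -0.57 for Serpinf1, -0.51 for Serpinf2 and -0.44 for Serpind1. The 3 clade I probe sets of Serpini1 and Serpini2 were called in no comparison.

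**Figure D5:**
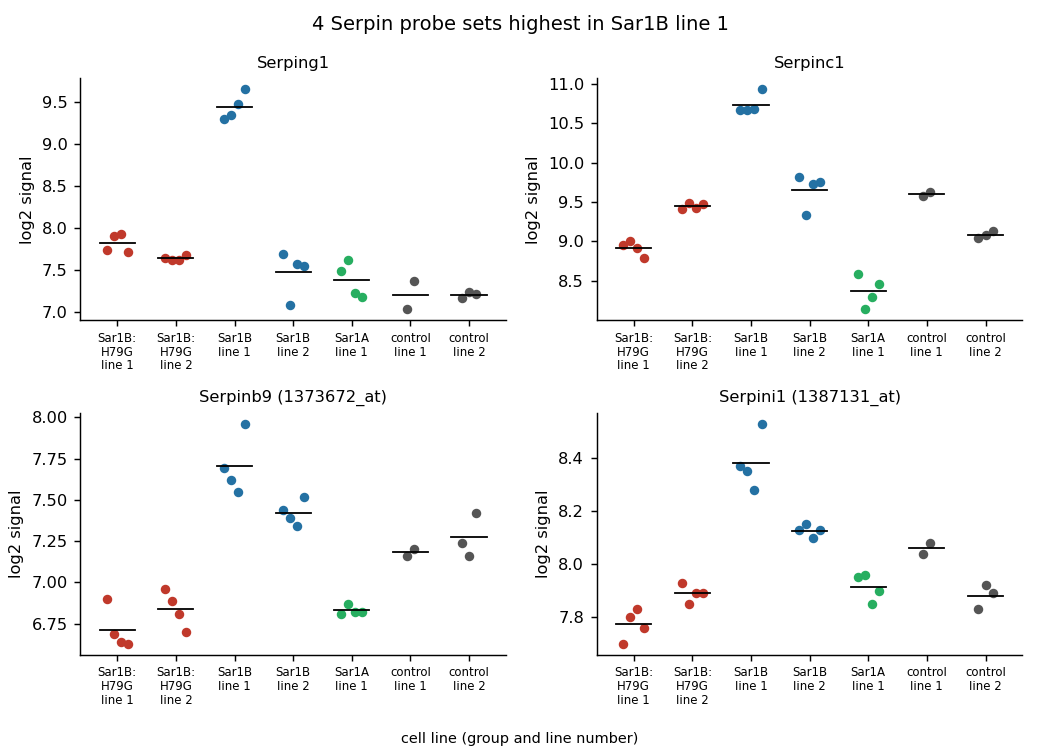
Log2 signal of Serping1, Serpinc1, the dimmer Serpinb9 probe set and the brighter Serpini1 probe set on every array (points) in the 7 lines, with the line mean as a bar. The panels were picked because Sar1B line 1 has the highest mean in each. The 4 Serping1 arrays of that line lie between 9.30 and 9.65 while every other Serping1 array lies below 8.0.

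Serpinh1, the collagen chaperone of the ER, was called in no comparison. The brighter of its probe sets had log2 signals of 7.47 and 7.52 in the Sar1B:H79G lines, 7.41 and 7.48 in the Sar1B lines, 7.34 in the Sar1A line, and 7.54 and 7.64 in the control lines. The other had 7.06 and 7.03 in the Sar1B:H79G lines, 6.93 and 7.10 in the Sar1B lines, 7.16 in the Sar1A line, and 7.07 and 7.20 in the control lines. The 7 lines spanned 0.29 on the brighter and 0.27 on the other, and both means lay below that of the median probe set. The Sar1B:H79G and Sar1B lines overlapped on both. On the brighter, the control lines were the highest and the Sar1A line the lowest. On the other, the Sar1B:H79G lines lay below both control lines by a small margin, and the Sar1A line lay above the Sar1B:H79G and Sar1B lines. Arrays of Sar1B:H79G and control overlapped on both. The Sar1B:H79G difference against control was -0.09 on both (adjusted p = 0.38 and 0.48), with intervals of -0.26 to 0.08 and -0.29 to 0.12. These intervals measure only the spread between lines. The part of the array series and of background in these dim signals was not tested. The promoter window of Serpinh1, a classical heat shock gene, is given because heat shock genes were measured beside it (RefSeq, GRCr8, chr1:163062977-163063226, minus strand). Capitals mark a GC box (GGGCGG, in 30.5% of all windows and 7 of 28 Serpin windows) and TTCCAGAAGTTTC, a match on the opposite strand to the heat shock element, 35 to 23 bases before the start. This element was found in 0.663% of all windows and in 1 of 28 Serpin windows.
Serpinh1: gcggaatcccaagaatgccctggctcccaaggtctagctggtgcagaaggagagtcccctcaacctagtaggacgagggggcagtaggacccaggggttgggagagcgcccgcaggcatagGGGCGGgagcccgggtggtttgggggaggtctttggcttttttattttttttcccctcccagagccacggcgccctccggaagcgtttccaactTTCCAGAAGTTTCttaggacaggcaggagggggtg

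Of 13 heat shock genes measured, 7 rose and 0 fell in Sar1B:H79G against control (median 0.44), beside 1906 higher and 1501 lower of 14217 genes (median 0.02). Hspb1 rose by 2.08 (adjusted p = 0.010), Hspb8 by 1.42 (0.0082) and Hsph1 by 0.75 (0.031) on the log2 scale, all of them chaperones or chaperone partners of the cytosol. In Sar1B against control 1 rose, beside 671 higher and 286 lower of 14217 genes, and in Sar1A against control 0, beside 94 higher and 29 lower. Among 29 collagens, collagen-modifying enzymes and their ER partners, 7 rose and 1 fell in Sar1B:H79G (median 0.08). The largest increases were of Kdelr3 (2.58, adjusted p = 0.0033) and Kdelr2 (1.36, adjusted p = 9e-04), receptors that return ER proteins such as Serpinh1 from the Golgi, and of the collagen chain Col5a2 (2.29, adjusted p = 0.0031).

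Serpins that enter the ER are folded, graded and exported with the help of lectins, chaperones and cargo receptors. Of 25 measured genes of this kind, 14 rose and 1 fell in Sar1B:H79G against control (median 0.40). Over all 14217 genes, 1906 were called higher and 1501 lower there. Against control, 4 rose in Sar1B, beside 671 higher and 286 lower of all genes, and 2 in Sar1A, beside 94 higher and 29 lower. In Sar1B:H79G against Sar1B 6 rose and 2 fell, beside 697 higher and 1021 lower of 14217 genes. Herpud1, a component of ER-associated degradation, rose by 1.56 (adjusted p = 0.0015). Mcfd2 and Lman1 form the cargo receptor for coagulation factors and, in human cells, α1-antitrypsin. Mcfd2 rose by 1.13 in Sar1B:H79G against control (adjusted p = 0.0012) and by 1.02 against Sar1B (adjusted p = 0.0028), with differences of 0.11 in Sar1B and 0.22 in Sar1A against control that were not called. Lman1 rose by 1.09 in Sar1B:H79G (adjusted p = 0.00099), 1.12 in Sar1B (adjusted p = 0.0066) and 0.98 in Sar1A (adjusted p = 0.03) against control and differed by -0.02 between Sar1B:H79G and Sar1B (adjusted p = 0.92), so that its shift was shared by all Sar1 lines and cannot be told apart from the array series. Over the 33 Serpin genes, each by its brightest probe set, 3 rose and 9 fell in Sar1B:H79G against control (median -0.14).

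Of 27 measured plasma proteins of hepatocytes that are not serpins, 0 rose and 4 fell in Sar1B:H79G against control (median -0.10), led by the fibrinogen chain Fga (-1.94, adjusted p = 0.0033), Apob (-1.41, adjusted p = 0.035) and Itih1 of inter-α-trypsin inhibitor (-1.00, adjusted p = 0.021). Over all 14217 genes, 1906 were called higher and 1501 lower in this comparison. The difference between the counts of these plasma proteins and those of the serpins was not tested.

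Of 24 measured genes in a list of proteases that serpins target, which also holds tissue factor, 1 rose and 3 fell in Sar1B:H79G against control (median -0.14). The gene that rose was F3, tissue factor itself, which is a cofactor of coagulation factor VII and not a protease (0.59, adjusted p = 0.011). Its mean lay at the 28.2nd percentile of all probe sets. Among the proteases that fell were Ctsh at -0.48 (0.018) and plasma kallikrein Klkb1 at -0.46 (0.014), the latter at the 13.3rd percentile. Without detection calls, signals as dim as those of F3 and Klkb1 cannot be separated from background. In Sar1B against control 0 of the list were called, beside 671 higher and 286 lower of 14217 genes. In Sar1A against control 0 were called, beside 94 higher and 29 lower. Of 11 co-receptors, clearance receptors and cofactors, 1 rose and 2 fell in Sar1B:H79G against control. Plaur, the urokinase receptor, rose by 1.11 (adjusted p = 0.0024), while the heparan sulfate proteoglycan Sdc4 (-1.13, adjusted p = 0.0029) and Lrp1, which clears serpin-protease complexes (-0.30, adjusted p = 0.043), fell. Of 13 genes that respond to transforming growth factor β, 2 rose and 3 fell (median -0.28). Id1 changed by -1.58 (adjusted p = 0.027), Tgfbi by -1.57 (0.0058) and Skil by 0.77 (0.0055). Beside each of these lists stand 1906 higher and 1501 lower of 14217 genes in Sar1B:H79G against control (median 0.02).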

How the data were processed

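RNA of 7 stable lines was measured on 25 Affymetrix arrays of the rat genome. CARMAweb (version not given in the sources used here) was used by the authors for loess and MAS 5 normalization. The deposited values, taken as log2 from their range (1.64 to 15.41), carry no detection calls. Array controls (57 probe sets) were left out. Members were matched by gene symbol in the platform annotation, and 38 of 38 symbols were unchanged when checked by gene identifier. The members and gene lists were chosen with earlier results of these data known, and no list was tested as a set. A control line had 2 arrays here, fewer than the minimum of the methods.

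Line means over arrays were compared in R 4.3.3 by limma 3.58.1 (7 lines in 4 groups, 3 residual and 3.16 prior degrees of freedom), with p-values adjusted over 31042 probe sets. The number of lines limits the precision, and the median SD between lines was 0.060 in Sar1B:H79G, 0.054 in Sar1B and 0.065 in control. The p-values measure only the spread between these lines. Line-by-line values were given by rule for Serpinf1, Serpinh1 and each member called with an absolute log2 fold change of 1 or more, and of each gene list for up to 3 called members with the largest changes in Sar1B:H79G against control. The alternatives were arrays as replicates, a random effect of the line (statmod 1.5.0), quantile and median normalization, a filter to probe sets above the median, separate fits of each pair of groups, trended and robust eBayes, a block for the line number, and leaving out each line. Cyclic loess between line means was chosen after seeing the data. The fit was tested on simulated data. Promoter windows come from RefSeq (GRCr8), which covers 27 of the 33 genes, with 28 windows. Both strands were searched for the TATA box (TATAAA), the CCAAT box, the GC box (GGGCGG), the STAT palindrome (TTCNNNGAA), the C/EBP-ATF element (TGATGCAA), the heat shock element, the HNF1 motif and its GTTAAT core, the HNF4 motif (CAAAGTCCA) and the ER stress element, which contains a CCAAT box.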

Additional observations from a re-analysis of the deposited data

Results flagged for a closer look

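For 19 Serpin probe sets, the arrays of each of the 4 groups, both lines of a group pooled, were searched for 1 array that stood apart from the others, and 4 of 76 such sets of arrays held one, about the number that chance gives at 1 in 20. For Serpinf1, 1 array of the Sar1A line read 9.80, against 9.47 for the nearest and 9.42 for the lowest array of the group, which leaves the line more than 1 unit below every Sar1B:H79G and Sar1B array. For Serpinh1 (its dimmer probe set), 1 array of Sar1B:H79G line 1 read 7.33, against 7.08 for the nearest and 6.94 for the lowest of the 8 Sar1B:H79G arrays. For Serpinb9 (its dimmer probe set), 1 Sar1A array read 6.87, against 6.82 for the nearest and 6.81 for the lowest array of the group. For Serpine3, 1 array of Sar1B:H79G line 1 read 7.04, against 7.25 for the nearest and 7.41 for the highest of the 8 Sar1B:H79G arrays.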

How the results depend on the processing

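The called Serpin results, 23 in all over 4 comparisons, were recomputed in 335 alternative values, of which 239 kept the call, 96 lost it in the same direction and 0 changed direction. Counts of called members moved most with the unit of replication. With each array as a replicate they were 20 in Sar1B:H79G, 26 in Sar1B and 22 in Sar1A against control, and between the Sar1 groups 15 for Sar1B:H79G and Sar1B, 9 for Sar1B:H79G and Sar1A and 12 for Sar1B and Sar1A. They were, with the line as a random block 17 in Sar1B and 13 in Sar1A against control, and between the Sar1 groups 11, 7 and 8 in the same order. Among the 14 members above the median probe set they were 8 in Sar1B:H79G, 2 in Sar1B and 0 in Sar1A against control, and 1 in Sar1B:H79G against Sar1A. In Sar1A against control the count was 2 with quantile normalization, 2 with trend and robust options, 5 with only the groups compared and 0 with cyclic loess. In Sar1B:H79G against Sar1B it was 1 with quantile normalization and 1 with only the groups compared, and against Sar1A 1 with a median shift, trend and robust options or cyclic loess. Leaving out single lines gave 4 to 13 in Sar1B:H79G, 0 to 4 in Sar1B and 0 in Sar1A against control, 1 to 3 for Sar1B:H79G and Sar1B, 0 to 1 for Sar1B:H79G and Sar1A and 0 to 1 for Sar1B and Sar1A. Fewer lines were fitted in these settings, and other causes were not tested. Arrays of a line are technical replicates, so the counts with each array as a replicate understate the spread between lines. Shares over all probe sets are not given beside the counts of this paragraph, which therefore cannot be read as particular to Serpins.

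The line numbers only mark lines: deviations of lines with the same number correlated at 0.0752 between Sar1B:H79G and Sar1B, 0.192 between Sar1B:H79G and control and 0.0071 between Sar1B and control. With the line number as a replicate block the counts were 11, 4 and 0 in Sar1B:H79G, Sar1B and Sar1A against control, 3 for Sar1B:H79G and Sar1B, 1 for Sar1B:H79G and Sar1A and 0 for Sar1B and Sar1A. The block ended the calls of Serpine2 (adjusted p = 0.066) and the dimmer Serpinb9 probe set (0.052) in Sar1B:H79G against control, of Serpinb2 (0.051), Serpina3c (0.063) and the brighter Serpinb9 probe set (0.061) in Sar1B against control and of Serpinb2 (0.10) in Sar1A against control. With 24 of 38 members at or below the median probe set and no detection calls, small differences of dim members cannot be set against a background.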
